A study of Mus musculus with 6 samples.

Results

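Toll-like receptors are pattern recognition receptors of innate immunity, and 10 genes encoding members of the family or the proteins that sit beside them were followed in hnRNP L deficient fetal liver (FL) progenitors. They were chosen by symbol, as 6 Toll-like receptors (*Tlr1*, *Tlr2*, *Tlr4*, *Tlr6*, *Tlr7* and *Tlr9*), the receptor homolog *Cd180* (RP105), and the co-receptors *Ly86* (MD-1), *Ly96* (MD-2) and *Cd14*. All 10 were found by their mouse Ensembl identifier among the 38293 genes of the count data. RNA was sequenced from 3 wt embryos and 3 hnRNP L deficient embryos at embryonic day 14.5, all of the C57BL/6 strain, each library coming from a single embryo. Per the paper's methods the cells were sorted Lin- cKit+ FL cells, a gate that holds hematopoietic stem and progenitor cells, whereas the sample labels name FL cells as the source and whole embryo as the tissue. The lineage cocktail used for FL contained antibodies against Gr1, B220, CD3 and Ter119 among others, and none against CD11b, so that CD11b alone did not remove a cell. In hnRNP L deficient embryos (VavCre+ hnRNP L fl/fl), Cre driven by the Vav promoter deletes floxed *Hnrnpl* alleles in blood cells. The labels describe the controls as wild-type only, with no word on Cre or floxed alleles. In a figure legend on these RNA-Seq reads, the paper writes the genotype of the wt samples as L fl/fl. *Hnrnpl* mRNA, counted over the whole gene and not over the deleted part alone, was at 552, 531 and 528 CPM (reads on the gene scaled to a common library size, with TMM factors) in wt replicates 1 to 3. In the hnRNP L deficient embryos it was at 242, 288 and 270 CPM, or 49.7% of the wt mean (log2 fold change -1.01 ± 0.09 (SE), adjusted p = 0.00724).

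TLR2 pairs with TLR1 or TLR6 at the cell surface to sense bacterial lipopeptides. TLR4 senses lipopolysaccharide together with MD-2, helped by the lipopolysaccharide carrier CD14. RP105 and MD-1 form a related complex on B cells and myeloid cells, while TLR7 and TLR9 sense single-stranded RNA and unmethylated CpG DNA in endosomes. In blood formation these receptors are known mainly from monocytes, macrophages, dendritic cells, granulocytes and B cells, and a part of them is also present on early progenitors.

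Reads on genes ranged from 55952160 to 76157226 per library, at which 3 reads, taken as the floor of detection, were worth between 0.0402 and 0.0540 CPM. Of 14396 genes that passed the filter on low counts, 1418 were called lower and 1341 higher in hnRNP L deficient cells at an adjusted p under 0.05 (edgeR quasi-likelihood test, Benjamini-Hochberg adjustment over all genes tested). wt replicate 2 stood apart from the other wt libraries in myeloid genes, as described with the marker genes, and wt replicate 1 and hnRNP L deficient replicate 2 carried high *Xist* (1965 and 2300 CPM) while the other 4 libraries carried Y-linked genes. In bulk RNA, fewer cells of a type and less RNA per cell cannot be told apart, and this applies to every gene below.

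The promoters of the genes that were called are shown because these genes fell together. They are RefSeq windows of GRCm38.p6, each from 250 bases before to 50 bases after an annotated start, at chr3:83841559-83841858 on the minus strand for *Tlr2*, chr13:102693297-102693596 on the plus strand for *Cd180* and chr13:37345095-37345394 on the plus strand for *Ly86*. The window of *Tlr9*, at chr9:106222348-106222647 on the plus strand, is shown with the letters GAGGAA, found in PU.1 sites, in capitals on either strand (TTCCTC where it lies on the other strand).
Tlr2: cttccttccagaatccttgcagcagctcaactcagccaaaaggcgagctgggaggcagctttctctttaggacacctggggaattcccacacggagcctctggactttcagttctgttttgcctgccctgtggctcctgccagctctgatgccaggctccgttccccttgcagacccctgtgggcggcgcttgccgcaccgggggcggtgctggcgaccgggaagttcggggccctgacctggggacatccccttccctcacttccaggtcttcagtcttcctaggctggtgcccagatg
Cd180: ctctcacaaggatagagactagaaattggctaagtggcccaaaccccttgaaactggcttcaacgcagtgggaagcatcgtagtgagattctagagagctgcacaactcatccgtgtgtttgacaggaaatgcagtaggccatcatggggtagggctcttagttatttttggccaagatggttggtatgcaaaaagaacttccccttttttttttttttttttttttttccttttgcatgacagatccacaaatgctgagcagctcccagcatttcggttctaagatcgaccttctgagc
Ly86: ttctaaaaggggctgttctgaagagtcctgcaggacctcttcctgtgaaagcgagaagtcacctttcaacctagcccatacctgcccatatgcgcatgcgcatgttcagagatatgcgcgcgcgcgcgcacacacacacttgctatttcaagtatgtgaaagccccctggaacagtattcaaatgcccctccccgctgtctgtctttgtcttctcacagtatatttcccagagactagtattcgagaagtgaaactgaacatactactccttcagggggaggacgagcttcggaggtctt
Tlr9: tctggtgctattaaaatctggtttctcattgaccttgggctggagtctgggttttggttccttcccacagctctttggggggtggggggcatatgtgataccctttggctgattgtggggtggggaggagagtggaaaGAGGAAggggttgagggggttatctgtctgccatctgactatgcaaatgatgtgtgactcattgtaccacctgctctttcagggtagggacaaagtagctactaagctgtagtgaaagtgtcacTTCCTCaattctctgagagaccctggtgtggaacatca
A window was found for 6 of the 10 genes (*Tlr1*, *Tlr2*, *Tlr6*, *Tlr9*, *Cd180* and *Ly86*), with 9 windows in all. Searched on both strands, GAGGAA stood in 2 of these 9 windows, beside 28.3% of 32851 windows of all genes. The letters TTGCNNAA, a core of C/EBP sites, stood in 1 of 9 windows, beside 10.8% of all, and TATAAA, the TATA box, in 1 of 9 beside 13.6%. The matches lay in *Tlr1* (GAGGAA, 23 bases before the start), in *Tlr9* (GAGGAA, starting 112 bases before the start and 13 bases after it), and in separate windows of *Tlr6* (TTGCNNAA and TATAAA). None of these letters stood in the windows of *Tlr2*, *Cd180* and *Ly86*. A match is a description of the letters and says nothing of binding.

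*Tlr2*, *Cd180* and *Ly86* fell in hnRNP L deficient cells, and the other receptor and co-receptor genes did not pass the test or the filter on low counts. Of the 10 genes, 8 passed the filter on low counts, 3 of these 8 were called lower and 0 were called higher. Over all genes tested, 9.85% were called lower and 9.32% higher. An unadjusted p under 0.05 was reached by 6 of the 8, beside 37.6% of all genes. In 5 of the 8 (*Tlr2*, *Tlr6*, *Tlr7*, *Cd180*, *Ly86*) every hnRNP L deficient library lay below every wt library, beside 22.7% of all genes. The median log2 fold change of the 8 was -2.71, against -0.03 over all genes tested. *Tlr6* passed the filter through its wt libraries alone, so that its lower level in hnRNP L deficient libraries was in part fixed by the filter. It is counted in the 5, the 6 and the median, and adds no support to them. *Tlr1* and *Cd14* did not pass the filter. The calls rested on every hnRNP L deficient library and on wt replicate 3: leaving out any 1 of these 4 left 0 of the genes called, while 0 to 2 of all genes were then called lower. The log2 fold changes in these 4 fits were -2.11 to -2.40 for *Tlr2*, -2.52 to -2.73 for *Cd180* and -3.30 to -4.03 for *Ly86*, with adjusted p between 0.0544 and 0.127. Without wt replicate 1 there were 6 calls (*Tlr1*, *Tlr7* and *Tlr9* in addition), and without wt replicate 2 there were 3. DESeq2 called 5 of the 8, with *Tlr7* and *Tlr9* in addition, and limma-voom called 4, with *Tlr7* in addition. Calls over all genes rose as well in these fits, from 1418 lower to 2479 without wt replicate 1 and 1855 without wt replicate 2. They were 2236 by DESeq2 and 2774 by limma-voom.

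**Figure D1:**
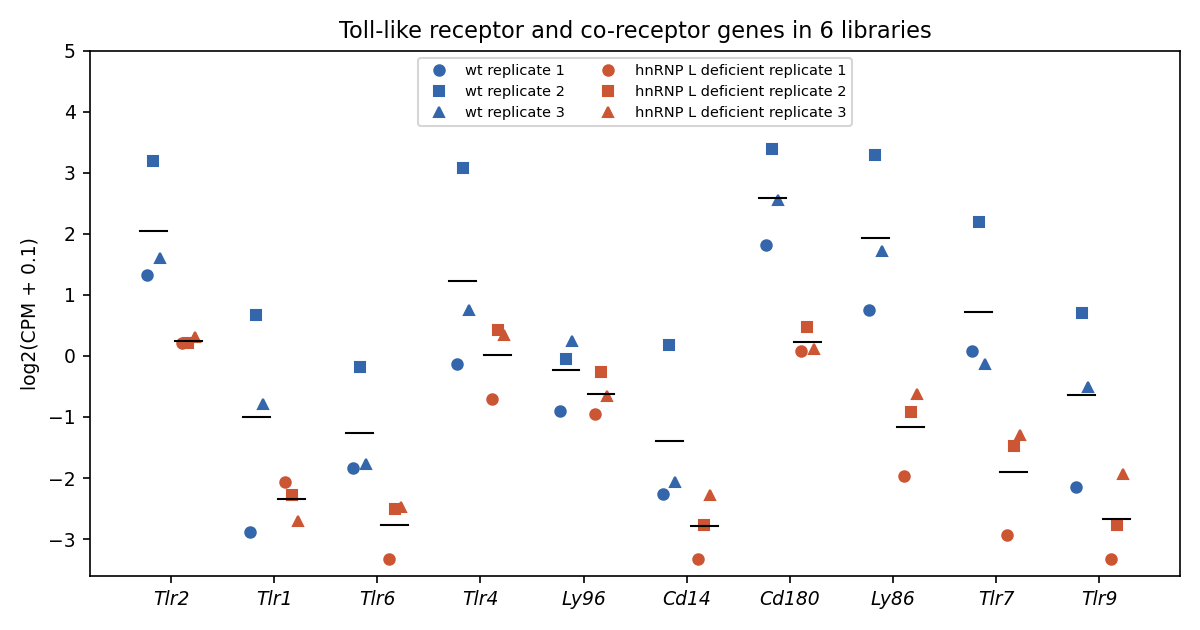
Expression of the 10 genes in each library as log2(CPM + 0.1), with 1 point per library, wt in blue, hnRNP L deficient in red, and bars at the mean of 3 libraries. wt replicate 2 is the highest library for every gene other than *Ly96*, and the groups are apart for *Tlr2*, *Tlr6*, *Tlr7*, *Cd180* and *Ly86*. For *Cd14* they barely part, with 0.108 CPM in the lowest wt library and 0.107 CPM in the highest hnRNP L deficient library.

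*Tlr2* lies on chromosome 3 (GRCm38 83836272 to 83841767, minus strand). It was expressed at 2.39, 9.05 and 2.95 CPM in wt replicates 1 to 3 and at 1.06, 1.06 and 1.14 CPM in hnRNP L deficient libraries in the same order. The 3 hnRNP L deficient libraries were nearly level and all below wt, where replicate 2 was high. *Tlr2* was called lower, with a log2 fold change of -2.14 ± 0.52 (SE) and an adjusted p of 0.0333. Without wt replicate 2 the log2 fold change was -1.30, with an adjusted p of 0.012.

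The partners of TLR2 had few reads. *Tlr6* had 10, 47 and 14 reads in wt replicates 1 to 3 and 0, 5 and 6 reads in hnRNP L deficient replicates 1 to 3. The groups did not overlap, and with a log2 fold change of -2.81 ± 1.00 (SE) its adjusted p of 0.0859 missed the threshold. Without wt replicate 2 the log2 fold change was -1.78 (adjusted p = 0.215). *Tlr1* had 2, 89 and 35 reads in wt and 9, 7 and 4 reads in hnRNP L deficient libraries. wt replicate 1 was thus the lowest of all 6 libraries, and the groups overlapped. With no filter on low counts *Tlr1* had a log2 fold change of -2.70 ± 1.07 (SE) and an adjusted p of 0.147. The genes lie side by side on chromosome 5, *Tlr1* at 64924679 to 64933563 and *Tlr6* at 64952031 to 64960097, both on the minus strand. Of the 2976 windows of 50 bases in the longest transcript of *Tlr1*, 454 (15.3%) are identical in *Tlr6*. At 100 bases, 259 of 2926 windows (8.85%) are identical. A read wholly within such a stretch cannot be assigned by its own sequence, and placement by its mate was not examined. The counts of both genes are thus uncertain to an extent that was not measured. No such window of *Tlr2*, *Tlr4*, *Tlr7*, *Tlr9*, *Cd180*, *Ly86*, *Ly96* or *Cd14* was found in another gene.

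The lipopolysaccharide receptor gene *Tlr4* (chromosome 4, 66827584 to 66930284, plus strand) was expressed at 0.810, 8.37 and 1.58 CPM in wt and at 0.513, 1.24 and 1.17 CPM in hnRNP L deficient libraries. The groups overlapped, and only wt replicate 2 was well above the rest. The log2 fold change of -1.88 ± 0.90 (SE) did not pass the test (adjusted p = 0.178), and it was -0.30 without wt replicate 2 (adjusted p = 0.678). *Ly96*, whose product MD-2 binds lipopolysaccharide within the TLR4 complex, lies on chromosome 1 (16688051 to 16709611, plus strand). It was at 0.432, 0.867 and 1.09 CPM in wt and 0.419, 0.734 and 0.536 CPM in hnRNP L deficient libraries. The groups overlapped, with a log2 fold change of -0.50 ± 0.44 (SE) and an adjusted p of 0.432. *Ly96* was also the only 1 of the 8 genes tested whose highest wt library was not replicate 2.

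*Cd14* (chromosome 18, minus strand) encodes the carrier that hands lipopolysaccharide to MD-2. It had 6, 62 and 10 reads in wt and 0, 3 and 8 reads in hnRNP L deficient libraries. In CPM the groups stood apart narrowly, at 0.108, 1.03 and 0.138 in wt and 0, 0.0459 and 0.107 in hnRNP L deficient libraries. With no filter on low counts its log2 fold change was -2.96 ± 1.19 (SE), with an adjusted p of 0.146.

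*Cd180* (chromosome 13, 102693558 to 102739629, plus strand) encodes a relative of TLR4 that lacks its signaling domain. It was at 3.44, 10.4 and 5.77 CPM in wt and at 0.963, 1.29 and 0.978 CPM in hnRNP L deficient libraries, so that the lowest wt library was above the highest hnRNP L deficient library. *Cd180* was called lower, with a log2 fold change of -2.60 ± 0.42 (SE) and an adjusted p of 0.0151. On the opposite strand *Mast4* covers 182 bases of its exons, and the strand setting of the counting is not given in the sources used here. *Ly86*, the gene of its partner MD-1 (chromosome 13, 37345208 to 37419036, plus strand), was at 1.58, 9.74 and 3.21 CPM in wt and at 0.155, 0.428 and 0.549 CPM in hnRNP L deficient libraries. It had the largest fold change of the 8 genes tested, -3.67 ± 0.80 (SE) on the log2 scale, with an adjusted p of 0.0276. Both partners were therefore called lower, *Cd180* to 16.5% and *Ly86* to 7.80% of the wt mean. Without wt replicate 2 the log2 fold changes were -2.10 for *Cd180* and -2.65 for *Ly86*, with adjusted p of 0.00597 and 0.0152.

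The endosomal receptors had low levels in hnRNP L deficient cells but missed the threshold of the test. *Tlr7* (X chromosome, 167304929 to 167330558, minus strand) was at 0.954, 4.47 and 0.812 CPM in wt and at 0.0311, 0.260 and 0.308 CPM in hnRNP L deficient libraries. The groups did not overlap, and the log2 fold change of -3.35 ± 0.96 (SE) had an adjusted p of 0.0525. Without wt replicate 2 it was -2.12 (adjusted p = 0.0701). DESeq2 gave an adjusted p of 0.00124 and limma-voom of 0.0436. As *Tlr7* is X-linked, the libraries were also set side by side by *Xist*: among the high-*Xist* libraries it was at 0.954 CPM in wt and 0.260 CPM in hnRNP L deficient cells. Among the other 4 it was at 4.47 and 0.812 CPM in wt and at 0.0311 and 0.308 CPM in hnRNP L deficient cells. *Tlr9* (chromosome 9, 106222598 to 106226883, plus strand) had 7, 92 and 44 reads in wt and 0, 3 and 12 reads in hnRNP L deficient libraries. At 0.126, 1.53 and 0.606 CPM against 0, 0.0459 and 0.161 CPM the groups overlapped, since wt replicate 1 was below hnRNP L deficient replicate 3. Its log2 fold change was -3.38 ± 1.18 (SE), with an adjusted p of 0.0839, and -2.35 without wt replicate 2 (adjusted p = 0.159).

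**Figure D2:**
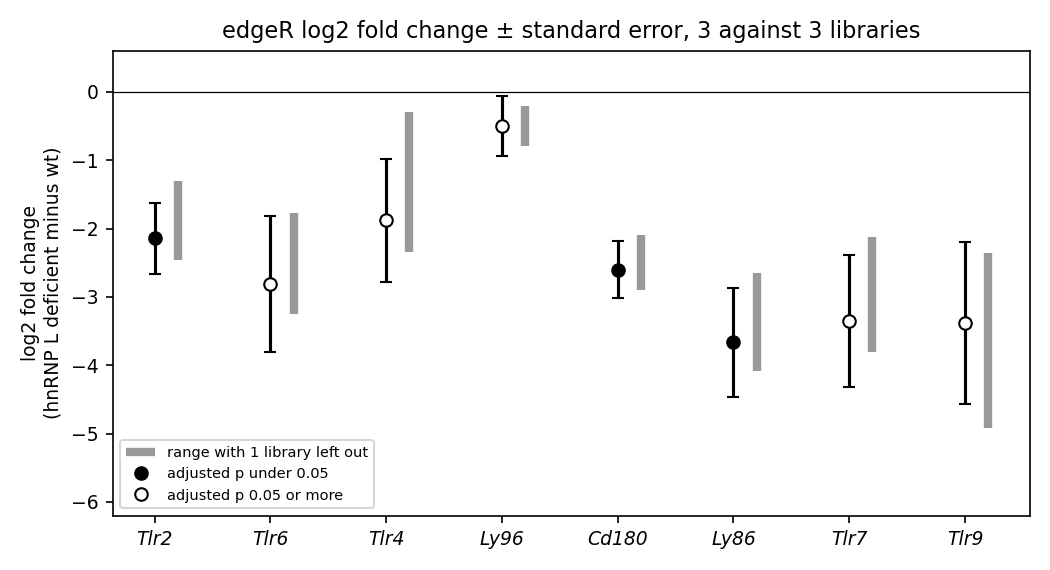
log2 fold change (hnRNP L deficient minus wt) of the 8 genes tested by edgeR, with bars for the standard error and grey bars for the range when 1 library is left out. All values lie below 0, from -3.67 for *Ly86* to -0.50 for *Ly96*, and filled points mark *Tlr2*, *Cd180* and *Ly86*, whose adjusted p is under 0.05.

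Summed over the 10 genes, expression was at 10.1, 47.7 and 16.8 CPM in wt replicates 1 to 3 and at 3.28, 5.28 and 5.08 CPM in hnRNP L deficient libraries. Their mean was 18.3% of the wt mean, and the sums did not overlap. wt replicate 2 was the highest wt library in 7 of the 8 genes tested (87.5%), while this was so in 39.9% of all genes tested. Its level was between 1.14 times (*Ly96*) and 8.42 times (*Cd14*) the mean of the other wt libraries. Against wt replicates 1 and 3 alone, the hnRNP L deficient mean was between 15.8% (*Ly86*) and 81.3% (*Tlr4*). hnRNP L deficient replicate 1 was the lowest library of its group for the sum and had 0 reads for *Tlr6*, *Tlr9* and *Cd14*.

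Levels of different genes were compared per length, as RPKM (CPM per kilobase of exon). In wt *Tlr2* stood first at 1.59 ± 1.23 RPKM (SD, n = 3), followed by *Cd180* at 1.45 ± 0.785 RPKM and *Ly86* at 1.33 ± 1.19 RPKM. Then came *Ly96* at 0.779, *Tlr4* at 0.646, *Tlr7* at 0.509, *Cd14* at 0.246, *Tlr9* at 0.217, *Tlr1* at 0.199 and *Tlr6* at 0.103 RPKM. Neighbours in this order changed places between libraries, and only the step from *Tlr7* to *Cd14* was seen in all 3 wt libraries, by between 1.83 and 3.75 times. In hnRNP L deficient cells *Ly96* stood first, with a mean of 0.552 RPKM, followed by *Tlr2* at 0.359 and *Cd180* at 0.238 RPKM.

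Whether co-receptors moved with their receptors was asked with the log2 ratio of their RPKM in each library, by an exact two-sided permutation test whose smallest p is 0.1 for 3 libraries against 3. No ratio could therefore pass a threshold of 0.05, and the values are given as a description. For *Ly96* over *Tlr4* it was 1.54, -0.83 and 1.90 in wt and 2.15, 1.69 and 1.32 in hnRNP L deficient libraries. The difference of 0.85 (exact p = 0.5) came from wt replicate 2, the only library with more *Tlr4* than *Ly96*, and was 0.0025 without it. For *Ly86* over *Cd180* the ratio was -0.81, 0.22 and -0.53 in wt and -2.32, -1.27 and -0.52 in hnRNP L deficient libraries, a difference of -0.997 (exact p = 0.3). For *Tlr1* over *Tlr2* the difference was 0.22 (exact p = 1), and it was -0.93 without wt replicate 1 and -0.10 without hnRNP L deficient replicate 1. Adjusted over these 3 pairs, the p were 0.75, 0.75 and 1. *Cd14* over *Tlr4* and *Tlr6* over *Tlr2* had no read in the numerator in hnRNP L deficient replicate 1. With 0.5 reads added to every count, the differences of these pairs were -1.57 (exact p = 0.2) and -1.13 (exact p = 0.6).

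Among the other genes of the pathway, 68 were listed and 53 tested. Of these, 8 (15.1%) were called lower, beside 9.85% of all genes tested, and 1 was called higher, beside 9.32%. The other 44 were not called, and the median log2 fold change was -0.21. Of the 6 other Toll-like receptors only *Tlr12*, a receptor for profilin in endosomes, passed the filter. It was at 1.30, 2.30 and 1.91 CPM in wt and 0.357, 0.383 and 0.322 CPM in hnRNP L deficient libraries, and was called lower (log2 fold change -2.37 ± 0.32 (SE), adjusted p = 0.0127). The groups were far apart and wt replicate 2 was close to the other wt libraries. *Tlr3*, *Tlr5*, *Tlr8*, *Tlr11* and *Tlr13* did not pass the filter and had wt means between 0.0442 and 0.314 CPM.

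Of the genes that bring ligands to the receptors, *Cd36*, a scavenger receptor that works with TLR2 and TLR6, was called lower. It was at 2.56, 2.95 and 2.73 CPM in wt and at 1.43, 1.84 and 1.17 CPM in hnRNP L deficient libraries (log2 fold change -0.89 ± 0.25 (SE), adjusted p = 0.0467). *Lbp*, which carries lipopolysaccharide to CD14, was at 4.59, 47.3 and 8.74 CPM in wt and 1.37, 4.90 and 4.89 CPM in hnRNP L deficient libraries, and with overlapping groups it did not pass (adjusted p = 0.152). Of 9 chaperones and proteases, 0 were called, at an unadjusted p under 0.05 in 4 (44.4%, beside 37.6% of all genes tested). *Unc93b1*, which takes TLR7 and TLR9 to endosomes, had a log2 fold change of -1.97 ± 0.78 (SE) and an adjusted p of 0.128.

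Of 5 adaptors tested, *Ticam2* (TRAM), the bridge from TLR4 to TRIF, was called lower (20%, beside 9.85% of all genes tested). It was at 2.72, 13.2 and 5.85 CPM in wt and at 0.839, 1.47 and 1.13 CPM in hnRNP L deficient libraries (log2 fold change -2.66 ± 0.58 (SE), adjusted p = 0.0272). Its exons form 1 unit with those of another gene in the exon data, so that its counts are uncertain. *Myd88*, the adaptor that nearly all Toll-like receptors use, was at 41.3, 46.2 and 39.9 CPM in wt and 46.3, 47.9 and 44.3 CPM in hnRNP L deficient libraries. Its log2 fold change was 0.12 ± 0.08 (SE) with an adjusted p of 0.326. Of 17 kinases and ubiquitin ligases, among them *Irak4*, *Traf6*, *Map3k7* and *Ikbkb*, 0 were called, with a median log2 fold change of -0.13. An unadjusted p under 0.05 was reached by 3 of them (17.6%), beside 37.6% of all genes tested. DESeq2 called 14 of the 53 pathway genes lower and 3 higher, and limma-voom 19 and 3. Without wt replicate 2 the counts were 10 and 3 and without wt replicate 1 they were 22 and 2, and without wt replicate 3 or any hnRNP L deficient library they were 0 and 0. Of all genes, 2236 were called lower by DESeq2, 2774 by limma-voom, 1855 without wt replicate 2 and 2479 without wt replicate 1.

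**Figure D3:**
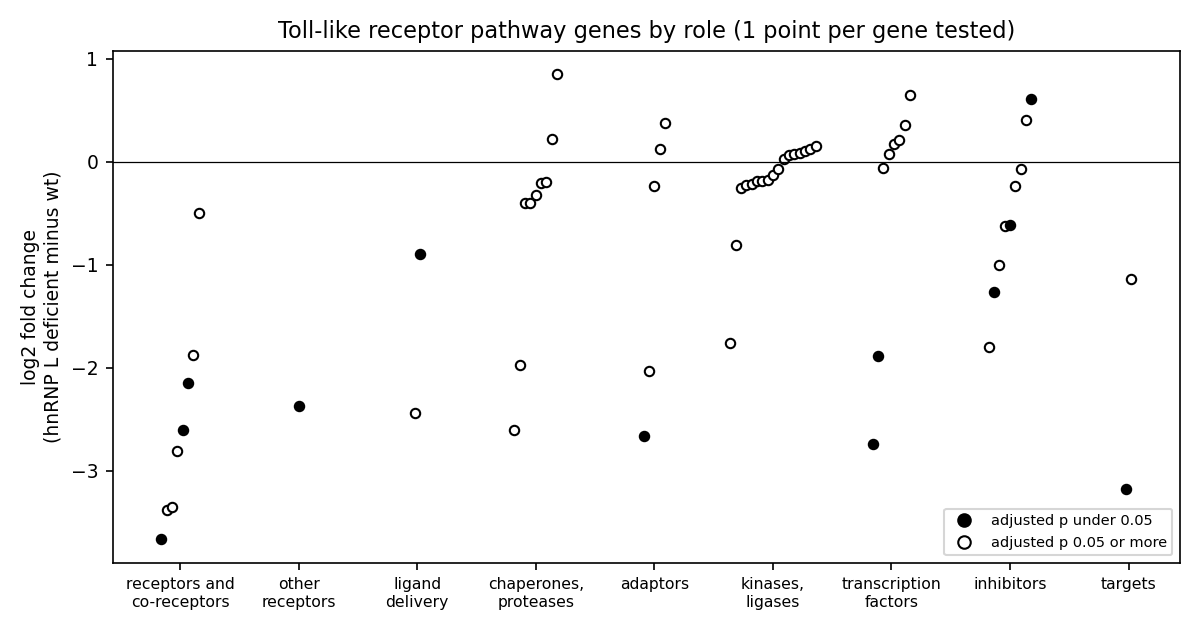
log2 fold change (hnRNP L deficient minus wt) by role, with 1 point for each gene tested, filled where the adjusted p is under 0.05. The receptors and co-receptors have a median of -2.71, while the 17 kinases and ligases have a median of -0.13 and 0 filled points.

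Of 8 transcription factors, *Irf5* and *Rel* were called lower (25%, beside 9.85% of all genes tested). *Irf5*, which acts below MyD88 in myeloid cells, was at 2.86, 15.3 and 6.06 CPM in wt and 0.854, 1.64 and 1.14 CPM in hnRNP L deficient libraries (log2 fold change -2.74 ± 0.63 (SE), adjusted p = 0.0311). *Rel*, encoding the NF-kB subunit c-Rel, was at 1.76, 4.97 and 3.01 CPM in wt and 0.497, 1.15 and 0.991 CPM in hnRNP L deficient libraries (log2 fold change -1.88 ± 0.47 (SE), adjusted p = 0.0356). The groups of both genes were apart, with wt replicate 2 highest. *Rela*, *Nfkb1* and *Irf3* had log2 fold changes of 0.08, -0.07 and 0.17 and did not pass the test. 

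Of 9 inhibitors, *Sigirr* (log2 fold change -1.27 ± 0.36 (SE), adjusted p = 0.0488) and *Cyld* (-0.61 ± 0.12 (SE), adjusted p = 0.0211) were called lower. That is 22.2%, beside 9.85% of all genes tested. SIGIRR dampens signals at the receptor, and CYLD removes ubiquitin chains from NF-kB regulators. *Il1rl1* (ST2), the IL-33 receptor, was the 1 gene called higher, at 41.9, 44.9 and 58.5 CPM in wt and 71.6, 77.5 and 73.0 CPM in hnRNP L deficient libraries (log2 fold change 0.61 ± 0.13 (SE), adjusted p = 0.0247). Of 11 target genes 2 were tested. The chemokine gene *Ccl4* was called lower (log2 fold change -3.18 ± 0.56 (SE), adjusted p = 0.017), at 0.252, 0.267 and 0.317 CPM in wt. It had 14, 16 and 23 reads in wt and 2, 1 and 3 reads in hnRNP L deficient libraries, the latter at or under the floor of detection. It passed the filter on low counts through its wt libraries alone, so that its lower level was in part fixed by the filter. Its place among the pathway genes called lower therefore adds no support to that count. *Ccl4* is named outside the rule, since its mean was under 1 CPM. *Tnf* was at 0.756, 2.13 and 0.619 CPM in wt and 0.295, 0.796 and 0.496 CPM in hnRNP L deficient libraries, with overlapping groups and an adjusted p of 0.203. *Il12b*, *Ifnb1* and *Nos2* had 0 reads in all 6 libraries.

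Marker genes of myeloid cells, which carry these receptors, were also high in wt replicate 2. Of 14 monocyte and macrophage markers tested, 5 were called lower (*Csf1r*, *C1qa*, *C1qc*, *Ccr2* and *Mrc1*), or 35.7%, beside 9.85% of all genes tested. The list holds 16 markers, of which *Cd163* had 0 reads. Their summed level was 43.9, 302 and 90.7 CPM in wt and 12.8, 52.5 and 60.3 CPM in hnRNP L deficient libraries, so that the sums overlapped, with wt replicate 2 highest and hnRNP L deficient replicate 1 lowest as for the receptors. *Lyz2* was the largest part of this sum in every library. Gene by gene, every hnRNP L deficient library lay below every wt library in 10 of the 14 markers tested (71.4%). This was so in 62.5% of the receptor genes tested and in 22.7% of all genes. *Timd4* is among the 10 and passed the filter on low counts through wt libraries alone, as did *Tlr6* among the receptors. *Csf1r*, the receptor for M-CSF, was at 11.3, 69.3 and 27.6 CPM in wt and 2.08, 4.61 and 4.80 CPM in hnRNP L deficient libraries (adjusted p = 0.0389). *Lyz2*, the lysozyme of myeloid cells, was at 16.2, 168 and 36.6 CPM in wt and 4.85, 38.1 and 45.5 CPM in hnRNP L deficient libraries, with overlapping groups (adjusted p = 0.47).

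Of 12 neutrophil markers 11 were tested and 0 were called by edgeR, with an unadjusted p under 0.05 in 1 (9.09%, beside 37.6% of all genes tested). Their sum was 582, 9118 and 1506 CPM in wt and 248, 1112 and 1191 CPM in hnRNP L deficient libraries. It was led by the granule protein genes *Mpo*, at 471, 5615 and 1165 CPM in wt and 191, 568 and 537 CPM in hnRNP L deficient libraries, and *Prtn3*, at 50.6, 1005 and 145 CPM in wt and 24.3, 95.8 and 92.0 CPM in hnRNP L deficient libraries. *Csf3r*, the G-CSF receptor gene, was the marker with an unadjusted p under 0.05 (log2 fold change -2.13 ± 0.67 (SE), adjusted p = 0.0767). The paper lists *Csf3r*, *Mpo*, *Prtn3* and *Ctsg* among selected genes that were lower by RNA-Seq in these same samples. It also reports RT-qPCR of lower genes, cytokine receptor genes among them. Other granule genes had a different pattern and are named after their values were seen. *Ltf* was at 1.21, 9.66 and 3.81 CPM in wt and at 0.823, 36.8 and 44.6 CPM in hnRNP L deficient libraries, with a log2 fold change of 2.49 ± 1.46 (SE) and an adjusted p of 0.273. *Ngp* and *Lcn2* had log2 fold changes of 2.21 and 1.49 and were not called. *S100a8*, *S100a9* and *Camp* in hnRNP L deficient replicates 2 and 3 lay above wt replicates 1 and 3 and below wt replicate 2. wt replicate 2 stood at 8.73 times the mean of the other wt libraries in this sum, at 4.49 times in the monocyte and macrophage sum and at 3.55 times in the sum of the receptors. The part of these cells in the lower receptor levels was not tested.

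B lineage markers were at 5.37, 24.0 and 6.39 CPM in wt and 1.96, 3.21 and 2.17 CPM in hnRNP L deficient libraries. Of 4 tested, 1 was called lower (*Blnk*, 25%, beside 9.85% of all genes tested), and *Ms4a1* was at 0 reads. *Cd79b*, a part of the B cell receptor, led them at 4.32, 19.96 and 4.56 CPM in wt and 1.76, 2.48 and 1.73 CPM in hnRNP L deficient libraries. Of 6 dendritic cell markers tested, 2 were called lower (*Itgax* and *Ccr9*, 33.3%, beside 9.85% of all genes tested). The sum of the dendritic cell markers was between 75.3 and 87.1 CPM in all libraries, led by *Zbtb46* and *Bst2*, which were not called. T and NK cell markers were at 5.60, 53.5 and 10.2 CPM in wt and 4.04, 6.90 and 6.47 CPM in hnRNP L deficient libraries. Of 3 tested, 1 was called lower (*Cd4*, 33.3%, beside 9.85% of all genes tested), and *Cd8a* and *Ncr1* were at 0 reads. *Nkg7* led the T and NK cell sum, and *Lck* came next. *Blnk*, *Itgax*, *Ccr9* and *Cd4* passed the filter on low counts through wt libraries alone, so that their lower levels were in part fixed by the filter. Mast cell and basophil markers, led by *Hdc* and *Cpa3*, summed to between 41.6 and 260 CPM in wt and between 24.1 and 94.6 CPM in hnRNP L deficient libraries. Of 7 tested, 0 were called by edgeR, with an unadjusted p under 0.05 in 1 (14.3%, beside 37.6% of all genes tested). That gene was the tryptase gene *Tpsb2*, at 0.702, 1.27 and 1.29 CPM in wt and 0.761, 6.90 and 4.77 CPM in hnRNP L deficient libraries (log2 fold change 1.93 ± 0.73 (SE), adjusted p = 0.107). *Cma1* and *Mcpt4* also had positive log2 fold changes (1.51 and 1.93), and were not called.

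The gate itself was seen in its own marker: *Kit* was at 423, 488 and 656 CPM in wt and at 368, 325 and 330 CPM in hnRNP L deficient libraries, and *Myb* at 443 to 562 and 420 to 490 CPM. Of 10 progenitor markers 5 (50%) were called lower (*Kit*, *Cd34*, *Flt3*, *Sox4* and *Meis1*), beside 9.85% of all genes tested. Their sum was 1098, 1520 and 1452 CPM in wt and 980, 863 and 868 CPM in hnRNP L deficient libraries. The erythroid markers *Klf1* and *Hbb-bs* were not called, and the erythroid sums of the groups overlapped. Hepatocyte markers, led by *Afp* and *Alb*, summed to 164, 116 and 240 CPM in wt and 21.9, 74.3 and 69.8 CPM in hnRNP L deficient libraries. Called lower were 2 of 8 (*Ttr* and *Trf*, 25%), beside 9.85% of all genes tested. In all 8 hepatocyte markers every hnRNP L deficient library lay below every wt library (100%, beside 22.7% of all genes tested). In the hepatocyte sum wt replicate 2 was the lowest wt library, and in none of the 8 genes was it the highest.

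**Figure D4:**
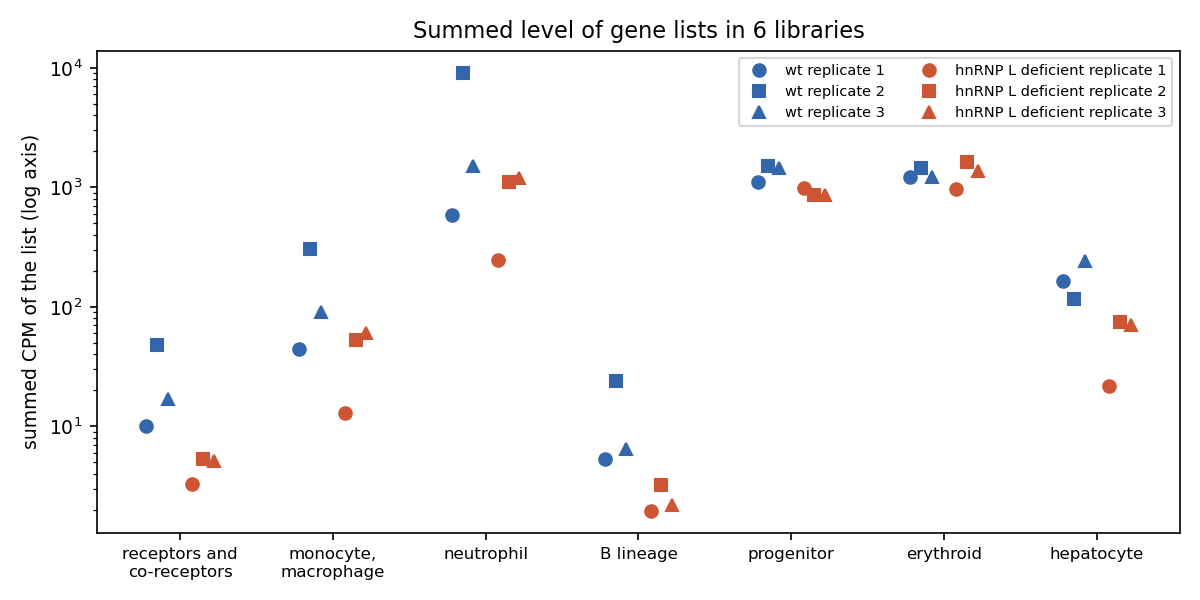
Summed CPM (log axis) of the 10 receptor and co-receptor genes and of marker lists in each library, with 1 point per library. wt replicate 2 is highest in the receptor, monocyte and macrophage, neutrophil and B lineage sums (47.7, 302, 9118 and 24.0 CPM) and lowest of the wt libraries in the hepatocyte sum (116 CPM).

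The 5 genes whose pattern over the 6 libraries was closest to the median pattern of the receptors were taken from 11614 candidates by the root mean square difference of centred log2(CPM + 0.1). *Nuak2*, encoding an AMPK-related kinase, was closest, with a difference of 0.0922 on the log2 scale. It was at 2.86, 11.8 and 4.02 CPM in wt and at 0.994, 1.51 and 1.58 CPM in hnRNP L deficient libraries. *Mctp1* (0.115), the gene ENSMUSG00000093470, which has no symbol here (0.157), the proton-sensing receptor gene *Gpr65* (0.159) and *Nat8l*, which encodes the enzyme that makes N-acetylaspartate (0.164), came next. By this choice all 5 share the order of the median pattern, with wt replicate 2 the highest and hnRNP L deficient replicate 1 the lowest library.

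Since hnRNP L regulates splicing, the use of exons within the receptor genes was compared in the 5 libraries with exon bin counts, which leave out hnRNP L deficient replicate 1. The 10 genes have 60 exon bins, of which 22 in 5 genes (*Tlr2*, *Tlr4*, *Cd180*, *Ly86* and *Ly96*) had a mean of at least 10 reads and were tested. Of these, 0 were called by diffSpliceDGE of edgeR and 0 had an unadjusted p under 0.05. By limma diffSplice 0 were called, with an unadjusted p under 0.05 in 3, which were bins 2, 4 and 5 of *Ly96*. Over all genes, 51 of 176996 bins were called (0.0288%). In *Tlr1*, *Tlr6* and *Tlr9*, which were not tested, a single bin held 93.2%, 98.0% and 97.5% of the bin counts.

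The smallest p was in *Ly96*, and its bins are described here after their values were seen. The authors' counts number the bins without giving their coordinates. On bins 1 and 2 together *Ly96* had 15, 53 and 17 reads in wt replicates 1 to 3 and 55 and 60 reads in hnRNP L deficient replicates 2 and 3. On bins 4 and 5 it had 26, 43 and 109 reads in wt and 20 and 9 reads in hnRNP L deficient libraries. A read can be counted on more than 1 bin, and the 48, 126, 170, 101 and 87 counts summed over the 5 bins exceed the 24, 52, 79, 48 and 40 reads of the gene in these libraries. As a share of the gene's bin counts, bins 4 and 5 held 54.2%, 34.1% and 64.1% in wt and 19.8% and 10.3% in hnRNP L deficient libraries, so that the groups did not overlap. Bin 4 had a log2 change in usage of -1.93 by diffSpliceDGE of edgeR, with an adjusted p of 1. Without wt replicate 2 the smallest unadjusted p of the *Ly96* bins by diffSpliceDGE was 0.00357, in bin 2, and no adjusted p was under 0.747. Without wt replicate 3 their smallest unadjusted p was 0.0938, in bin 4. In *Ly86*, whose gene count fell, bins 4 and 5 held 49.0%, 46.8% and 43.5% of the bin counts in wt and 37.8% and 52.1% in hnRNP L deficient libraries, and the groups overlapped. Among the other pathway genes, the paper lists *Ticam2* as having an exon with different usage by DEXSeq. That list asked for a P threshold, with no adjustment named, and a change of more than 2-fold. It is therefore not at the threshold used here, an adjusted p under 0.05 over all bins tested. In the fit here, 51 of the other pathway genes had a tested bin and 0 had a called bin. The smallest adjusted p, 0.0722, was in the unit of *Ticam2* and another gene, in which 4 of 12 bins tested had an unadjusted p under 0.05 by diffSpliceDGE of edgeR. Its bin 1 had a log2 change in usage of -2.60, with an unadjusted p of 2.34e-05 by diffSpliceDGE of edgeR. The change was near the log2 fold change of -2.66 of the whole *Ticam2* gene. In a unit of 2 genes, this change in usage cannot be told apart from a fall of 1 whole gene.

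**Figure D5:**
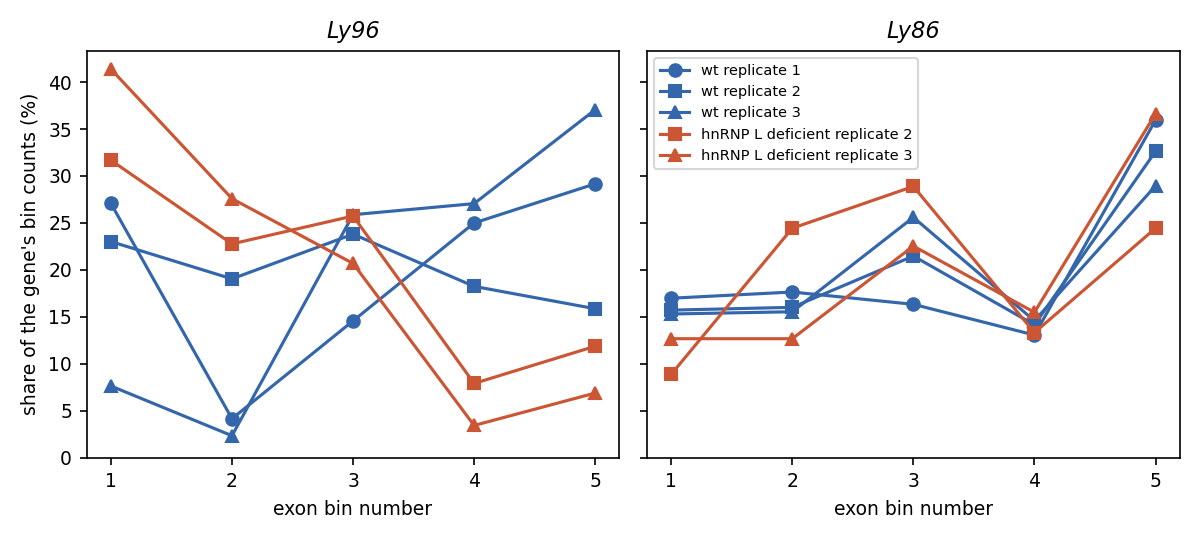
Share of the bin counts of *Ly96* and *Ly86* on each of their 5 exon bins (% of the gene's bin counts), with 1 line per library, wt in blue and hnRNP L deficient in red. In *Ly96* bins 4 and 5 together hold 34.1% to 64.1% in wt and 10.3% to 19.8% in hnRNP L deficient libraries, while the lines of *Ly86* overlap.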

How the data were processed

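Paired-end reads of stranded mRNA libraries came from sorted FL cells of 3 wt and 3 hnRNP L deficient embryos. Alignment by the authors was to GRCm38 with TopHat2 2.0.10 (version per the submitters' processing notes). The authors deposited raw counts, made with HTSeq for Ensembl genes and with the DEXSeq script for exon bins. The Ensembl release and the strand setting of the counting are not given in the sources used here. Rows that name no gene, with 46.7% to 53.3% of all reads, were left out. For hnRNP L deficient replicate 1, gene counts alone were used here.

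The deposited counts were tested with edgeR 4.0.16 in R 4.3.3 (TMM, default expression filter, robust quasi-likelihood test, Benjamini-Hochberg adjustment over all 14396 genes tested), with no covariate, since the labels give no batch. Standard errors are the log2 fold change over the square root of F. A bin entered diffSpliceDGE, used in place of DEXSeq, if its mean reached 10 reads. CPM used the TMM-scaled library size, and RPKM the union of exons in GENCODE M21. Symbols were matched for 95.1% of genes. Replicates were numbered in accession order, which does not pair them, and the labels call each sample a separate embryo. For genes with few reads, counting error and the spread between embryos both limited the precision. DESeq2 1.42.0, limma 3.58.1, other scalings and filters and leaving out each library were alternatives, and the scripts were tested on simulated data.

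The receptor genes, the pathway and marker lists and the tests were chosen with earlier results of these data known. Named are all 10 genes, up to 3 called pathway genes per role and direction with a mean of at least 1 CPM, the 5 genes with the closest pattern and the 2 markers of each list with the highest wt mean. Some erythroid and megakaryocyte marker results are not reported here. Further genes are named as members of counts of 5 or fewer or as examples of a role, chosen after their values were seen.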

Additional observations from a re-analysis of the deposited data

How the results depend on the processing

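The direction of the 8 receptor and co-receptor genes tested was the same under every alternative run, and the number called lower (3) was 3 or 4 under every scaling, filter and limma-voom fit, 5 by DESeq2, and 0 to 6 when 1 library was left out. 0 were called after leaving out wt replicate 3 or hnRNP L deficient replicate 1, 2 or 3, when 0 to 2 of all genes were called lower. Pathway genes called lower (8) were 14 by DESeq2, 19 by limma-voom and 0 to 22 with 1 library left out. Those called higher (1) were 3 by DESeq2, 3 by limma-voom, 0 when a fold change above 2 was asked for in addition, and 0 to 3 with 1 library left out. Over all genes, 1418 lower calls became 2236 by DESeq2, 2774 by limma-voom, 743 with a fold change above 2 and 0 to 2479 with 1 library left out, and 1341 higher calls became 2064, 2576, 224 and 5 to 2312. Scaling by total reads gave 1751 lower and 1066 higher calls. Called exon bins of all genes (51) were 218 by limma diffSplice and 3 to 158 with 1 library left out, and those of the receptor genes were 0 throughout. The log2 ratio of *Tlr1* to *Tlr2*, whose difference of 0.22 had no support from its test, was -0.93 to 0.79 with 1 library left out, an alternative added after the data were seen. It reversed without wt replicate 1 (-0.93) and without hnRNP L deficient replicate 1 (-0.096). The causes of these changes were not tested. No paired analysis was possible because only 1 wt and 1 hnRNP L deficient embryo share a part of their number in the labels (wt replicate 1 and hnRNP L deficient replicate 1). Between these 2 libraries alone, with no test, the differences in log2(CPM + 0.1) were -1.11 for *Tlr2*, -0.57 for *Tlr4*, -1.49 for *Tlr6* and -3.01 for *Tlr7*. They were -1.18 for *Tlr9*, -1.74 for *Cd180*, -2.72 for *Ly86* and -0.035 for *Ly96*. The added 0.1 CPM makes such differences smaller in genes with few reads, and *Tlr6* and *Tlr9* had 0 reads in hnRNP L deficient replicate 1. The sizes were therefore not compared with the log2 fold changes over the 6 libraries.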
